A study of Mus musculus with 6 samples.

Results

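The genes described here are 10 transcriptional targets of Wnt/β-catenin signalling, most of which encode inhibitors of the pathway that induces them. Axin2, Nkd1, Nkd2, Notum, Apcdd1, Znrf3, Rnf43, Lgr5, Sp5 and Wif1 were taken by symbol from the deposited count table, which held 24091 genes. All 10 were found, and all 10 were among the 15050 genes with enough counts to test. The series measured mouse prostate RNA in 3 groups of 2 libraries, 6 in all. The 12Q group was prostate tumors of mice labelled ArhAR12Q/Y, Ctnnb1(Ex3)L/wt and PBCre-4, which carry a humanised allele with 12 glutamines in its polyglutamine tract. The 48Q group was prostate tumors of mice labelled ArhAR48Q/Y, Ctnnb1(Ex3)L/wt and PBCre-4, with 48 glutamines in that tract. Both tumor genotypes thus shared the β-catenin allele with a conditional exon 3, carried on 1 chromosome, and the PBCre-4 transgene, whose probasin promoter directs Cre recombinase to prostate epithelium. Wild-type mice, with none of the alleles named above, supplied normal prostate for the WT group, so that a difference from WT cannot be told apart between tumor formation, either altered allele and the transgene. The sources used here give no ages.

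In Wnt signalling, a secreted Wnt protein binds Frizzled and Lrp5 or Lrp6 at the cell surface, a destruction complex that otherwise marks β-catenin for degradation is switched off, and β-catenin enters the nucleus and activates genes together with TCF/LEF factors. Exon 3 of Ctnnb1 encodes the residues by which the destruction complex marks β-catenin, and β-catenin without them is stable. Several of the genes that β-catenin activates dampen the pathway: Notum, Wif1 and Apcdd1 act on the ligand or at the cell surface, Znrf3 and Rnf43 remove Frizzled receptors, and Nkd1, Nkd2 and Axin2 act inside the cell. Lgr5 encodes a receptor for R-spondins, which protect Frizzled from Znrf3 and Rnf43, and Sp5 encodes a zinc finger transcription factor that is a direct target in many tissues.

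Libraries held 26416181 to 28559546 counts, and levels are given as CPM, counts per 1000000 library counts after TMM scaling, which corrects for differences in library composition. The scaling factors were 0.708 and 0.811 in WT, where 9530053A07Rik alone took 17.4% and 22.8% of counts, and 1.02 to 1.24 in tumors. All 8 luminal prostate markers, among them Krt8 and Hoxb13, were detected in every library, with their summed level at 6469 and 8484 CPM in 12Q, at 3531 and 3564 in 48Q and at 7155 and 11280 in WT. The summed level of 8 smooth muscle markers stood at 54.6 and 55.4 CPM in 12Q, at 319 and 888 in 48Q and at 2370 and 6002 in WT. Of 6 basal epithelial markers, all 6 were called lower in 12Q than in WT and 0 in 48Q. All 6 summed to 59.98 and 47.7 CPM in 12Q, to 564 and 490 in 48Q and to 1262 and 755 in WT. Without Dst, the most abundant of them, the other 5 summed to 1.59 and 5.14 CPM in 12Q, to 265 and 223 in 48Q and to 265 and 232 in WT. The 8 fibroblast markers summed to 171 and 481 CPM in 12Q, to 1125 and 1003 in 48Q and to 631 and 735 in WT. Of 8 squamous epithelial markers, 5 were called higher and 1 lower in 12Q and 3 higher and 0 lower in 48Q. All 8 summed to 212 and 350 CPM in 12Q, to 103 and 144 in 48Q and to 229 and 6.5 in WT. Sprr1a alone was at 225.5 and 4.02 CPM in WT. Without Sprr1a, the other 7 summed to 92.1 and 269 CPM in 12Q, to 46.7 and 117 in 48Q and to 3.39 and 2.48 in WT. The 8 hair matrix markers summed to 90.2 and 260 CPM in 12Q, to 36.8 and 58.0 in 48Q and to 1.56 and 4.47 in WT, with Hoxc13 at 0 counts in 12Q and WT. Of the 6 tested, 2 were called higher and 1 lower in 12Q, and 1 higher and 0 lower in 48Q. Without Dlx3, the other 7 summed to 25.5 and 146 CPM in 12Q and to 21.7 and 35.3 in 48Q. In WT those 7 summed to 1.41 and 4.07 CPM. Msx1 was at 0.259 and 0.2785 CPM in 12Q against 1.304 and 3.405 in WT. In bulk tissue, fewer cells of a type and less RNA per cell cannot be told apart. The summed level of 6 macrophage markers stood at 198 and 212 CPM in 12Q, at 249 and 260 in 48Q and at 69.1 and 69.95 in WT. The part of these cell type differences in the results that follow was not tested. Ctnnb1 itself was at 958 and 1035 CPM in 12Q, at 1082 and 957 in 48Q and at 669 and 569 in WT, and counts per gene cannot show the loss of exon 3.

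Mean levels of all 10 genes were higher in tumors of either genotype than in WT. In 12Q tumors, 5 of the 10 passed the test, namely Apcdd1, Notum, Nkd2, Rnf43 and Axin2, all upward, where 11.2% of all tested genes were called higher (edgeR quasi-likelihood test, adjusted p under 0.05). In 48Q tumors, 4 of the 10 passed, namely Apcdd1, Notum, Znrf3 and Axin2, again all upward, against 3.95% of all tested genes called higher. No member was called lower in either comparison, against 11.2% of all genes in 12Q and 1.23% in 48Q, and all 10 fitted differences were positive. The median log2 fold change of the 10 genes was 2.05 in 12Q and 1.99 in 48Q tumors relative to WT, where the medians of all genes tested were -0.01 and 0.02. Both 12Q libraries lay above both WT libraries for 9 of the 10 genes, Lgr5 being the exception, against 30.1% of all genes, and both 48Q libraries did so for all 10, against 34.7% of all genes. The 2 comparisons share their WT libraries and are therefore not independent. WT replicate 1 bore on both. Without it every 48Q call was lost with edgeR, for members and other genes alike, and fewer members and fewer of all genes passed in 12Q. The median log2 fold change of the 10 genes was then 1.74 in 12Q and 1.72 in 48Q, where the medians of all genes were 0.019 and 0.012.

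**Figure D1:**
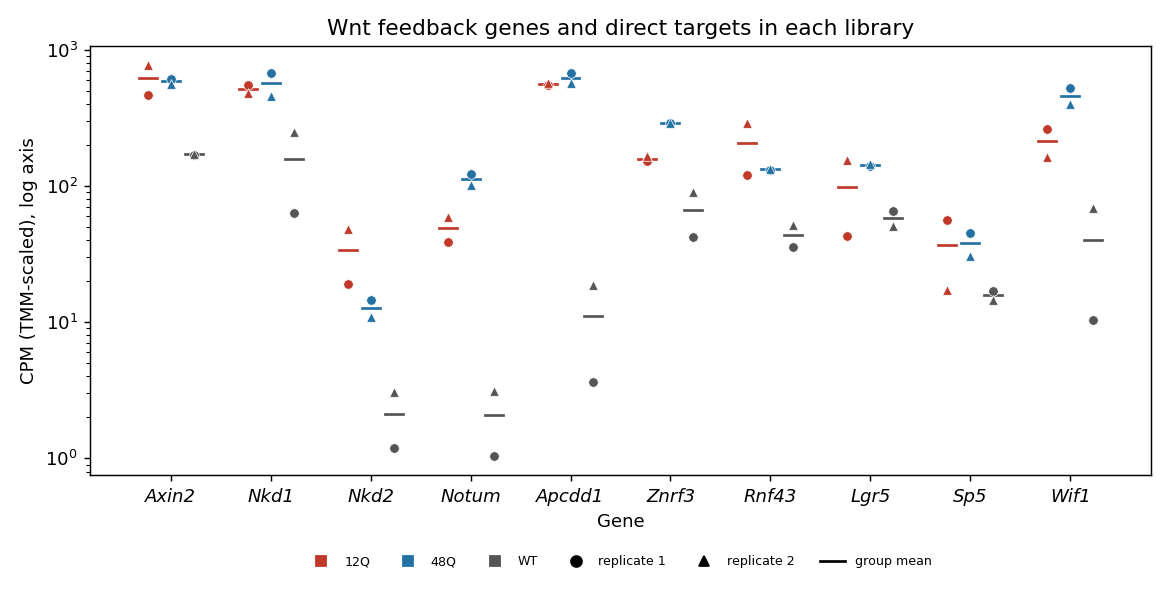
CPM after TMM scaling, on a log axis, of the 10 genes in each of the 6 libraries. Points are libraries (circles replicate 1, triangles replicate 2) and bars are group means; both 48Q libraries lie above both WT libraries for all 10 genes, and Lgr5 in 12Q replicate 1, at 43.1 CPM, lies below both WT libraries.

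Among the intracellular inhibitors, Axin2 (mm10, chromosome 11, 108920349 to 108950781, plus strand) encodes a scaffold of the β-catenin destruction complex and is the most widely used readout of the pathway. It stood at 471 and 771 CPM in the 12Q libraries, at 614 and 562 in 48Q and at 171 and 173 in WT. The WT libraries were almost equal, and all tumor libraries lay above them. The level was 3.61-fold higher in 12Q than in WT (log2 fold change 1.85 ± 0.33 SE, edgeR adjusted p = 0.0143) and 3.42-fold higher in 48Q (1.77 ± 0.33, edgeR adjusted p = 0.0394). Without WT replicate 1 these fold changes were nearly the same, at 1.85 and 1.76, but the edgeR adjusted p was 0.0519 and 0.149, and the 48Q call was also lost without WT replicate 2 (0.0731) and without 48Q replicate 1 or 2 (0.213 and 0.216).

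Nkd1 and Nkd2 encode the Naked cuticle proteins, which bind Dishevelled and dampen the signal it relays. Nkd2 (chromosome 13, 73819328 to 73847631, minus strand) stood at 19.0 and 48.7 CPM in 12Q, at 14.5 and 10.9 in 48Q and at 1.20 and 3.05 in WT. It was thus low in WT, intermediate in 48Q and highest in 12Q, with no overlap between any pair of groups. The WT values rest on 23 and 69 counts. Nkd2 was 15.9-fold higher in 12Q than in WT (log2 fold change 3.98 ± 0.67 SE, edgeR adjusted p = 0.0119), a call that held under each of 12 alternative settings. In 48Q the difference was 5.98-fold and did not pass (2.57 ± 0.63, edgeR adjusted p = 0.0701), but did with DESeq2 (DESeq2 adjusted p = 0.00102). Nkd1 (chromosome 8, 88521344 to 88594887, plus strand) stood at 556 and 482 CPM in 12Q, at 675 and 463 in 48Q and at 63.4 and 251 in WT. The tumor libraries were within 1.46-fold of each other in each genotype, whereas WT replicate 2 was 3.97-fold above WT replicate 1. Nkd1 did not pass in 12Q (log2 fold change 1.72 ± 0.63 SE, edgeR adjusted p = 0.0967), nor did it in 48Q (1.85 ± 0.63, edgeR adjusted p = 0.138). Without WT replicate 2 the fold changes were 3.03 and 3.16 and passed (edgeR adjusted p = 0.0217 and 0.0394).

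Notum and Apcdd1, which act on the ligand and at the cell surface, had the largest fold changes of the 10 genes in both tumor genotypes. Notum (chromosome 11, 120653789 to 120660837, minus strand) encodes a secreted enzyme that removes the lipid a Wnt protein needs to bind Frizzled. It stood at 39.2 and 59.5 CPM in 12Q, at 123 and 102 in 48Q and at 1.04 and 3.14 in WT, the WT values resting on 20 and 71 counts. No groups overlapped, and WT was lowest as for Nkd2, but here 48Q lay above 12Q. Notum was 23.6-fold higher in 12Q than in WT (log2 fold change 4.55 ± 0.55 SE, edgeR adjusted p = 0.00572) and 53.9-fold higher in 48Q (5.74 ± 0.58, edgeR adjusted p = 0.0108). The 12Q call held under all 12 alternatives and the 48Q call under 11, the exception being the fit without WT replicate 1 (5.16, edgeR adjusted p = 0.0669). The exons of Notum share 708 bases with those of Notumos, an antisense gene of the GENCODE M21 annotation, and those of Axin2 share 209 bases with antisense Gm11670, so that reads from either strand may enter these values, as the strand setting of the counting is not given in the sources used here.

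Apcdd1 encodes a membrane-bound glycoprotein that binds Wnt ligands and Lrp5. It stood at 555 and 571 CPM in 12Q, at 682 and 571 in 48Q and at 3.65 and 18.7 in WT. The 4 tumor libraries were close together, and the spread lay in WT, where replicate 2 was 5.14-fold above replicate 1. Apcdd1 was 50.2-fold higher in 12Q (log2 fold change 5.65 ± 0.81 SE, edgeR adjusted p = 0.00823) and 55.9-fold higher in 48Q (5.80 ± 0.81, edgeR adjusted p = 0.0227). Across the alternatives the 12Q value ranged from 4.91 to 7.26 and passed in all 12, and the 48Q value passed in 11, again not without WT replicate 1 (5.06, edgeR adjusted p = 0.0669). In 12Q its log2 fold change exceeded that of 97.9% of all genes tested.

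Wif1 (chromosome 10, 121034004 to 121100642, plus strand), a secreted protein that binds Wnt ligands, stood at 263 and 165 CPM in 12Q, at 525 and 400.2 in 48Q and at 10.4 and 69.5 in WT. Both tumor genotypes lay above WT without overlap, and the WT libraries differed 6.69-fold, the widest gap between replicates of any member. The differences of 5.36-fold in 12Q (log2 fold change 2.42 ± 0.82 SE, edgeR adjusted p = 0.0801) and 11.6-fold in 48Q (3.53 ± 0.86, edgeR adjusted p = 0.0685) did not pass. Without WT replicate 2 they were 4.36 and 5.47 on the log2 scale and passed (edgeR adjusted p = 0.0193 and 0.0363), and without WT replicate 1 they were smaller and did not.

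Znrf3 (chromosome 11, 5276329 to 5444847, minus strand) and Rnf43 (chromosome 11, 87662722 to 87735539, plus strand) encode related transmembrane ubiquitin ligases that clear Frizzled and Lrp6 from the cell surface. Znrf3 stood at 153 and 166 CPM in 12Q, at 292 and 293 in 48Q and at 42.5 and 91.2 in WT. It was 4.38-fold higher in 48Q than in WT (log2 fold change 2.13 ± 0.38 SE, edgeR adjusted p = 0.0379), a call lost without WT replicate 1 (1.68, edgeR adjusted p = 0.0877) or without 48Q replicate 1 or 2 (0.129 and 0.158). In 12Q it was 2.39-fold higher and did not pass (1.25 ± 0.37, edgeR adjusted p = 0.0583), but did with DESeq2 (DESeq2 adjusted p = 0.00980). Rnf43 stood at 122 and 292 CPM in 12Q, at 132 and 135 in 48Q and at 35.7 and 51.6 in WT. The high value was 12Q replicate 2, while 12Q replicate 1 lay just below the 48Q libraries. Rnf43 was 4.74-fold higher in 12Q than in WT (log2 fold change 2.24 ± 0.45 SE, edgeR adjusted p = 0.0195), a call lost without WT replicate 1 (2.01, edgeR adjusted p = 0.0867) or WT replicate 2 (2.53, edgeR adjusted p = 0.0580). It was 3.06-fold higher in 48Q, which did not pass (1.61 ± 0.44, edgeR adjusted p = 0.0855) but did with DESeq2 (DESeq2 adjusted p = 0.00974).

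The balance between these paralogs, a quantity chosen after the values were seen, can be read within each library, where scaling cancels. The ratio of Rnf43 to Znrf3 in counts per kilobase of gene model stood at 0.986 and 2.18 in 12Q, at 0.561 and 0.570 in 48Q and at 1.04 and 0.701 in WT. Both 48Q libraries were the lowest of the 6, and the 12Q libraries differed by more than the other groups did. The ratio of Nkd1 to Nkd2 stood at 25.8 and 8.74 in 12Q, at 41.0 and 37.6 in 48Q and at 46.6 and 72.7 in WT, so that the 12Q libraries were the lowest and the WT libraries the highest. No test of these ratios was made.

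Lgr5 and Sp5 had the smallest fold changes relative to WT among the 10 genes in 48Q as in 12Q. Lgr5 (chromosome 10, 115450314 to 115587780, minus strand), also known as a marker of stem cells in several epithelia, stood at 43.1 and 155 CPM in 12Q, at 141 and 146 in 48Q and at 66.1 and 51.3 in WT. The 12Q libraries fell on either side of WT. The log2 fold change was 0.75 ± 0.55 SE in 12Q (edgeR adjusted p = 0.357) and 1.29 ± 0.56 in 48Q (edgeR adjusted p = 0.214), and neither passed. The 48Q fold change passed when only the 2 groups were fitted (edgeR adjusted p = 0.04455) but not with DESeq2 (DESeq2 adjusted p = 0.135). In 12Q it was -0.44 without 12Q replicate 2 and 1.45 without 12Q replicate 1, where it passed (edgeR adjusted p = 0.0239), so that its direction rests on which 12Q library is used.

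Sp5 (chromosome 2, 70474923 to 70477726, plus strand) stood at 56.5 and 17.2 CPM in 12Q, at 45.2 and 30.8 in 48Q and at 17.0 and 14.6 in WT. The WT libraries were close, while 12Q replicate 2 lay barely above them. Its log2 fold change of 1.22 ± 0.55 SE in 12Q (edgeR adjusted p = 0.158) and 1.27 ± 0.55 in 48Q (edgeR adjusted p = 0.218) did not pass. Without 12Q replicate 2 the 12Q value was 1.84 and passed (edgeR adjusted p = 0.0316), and without 12Q replicate 1 it was 0.17.

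**Figure D2:**
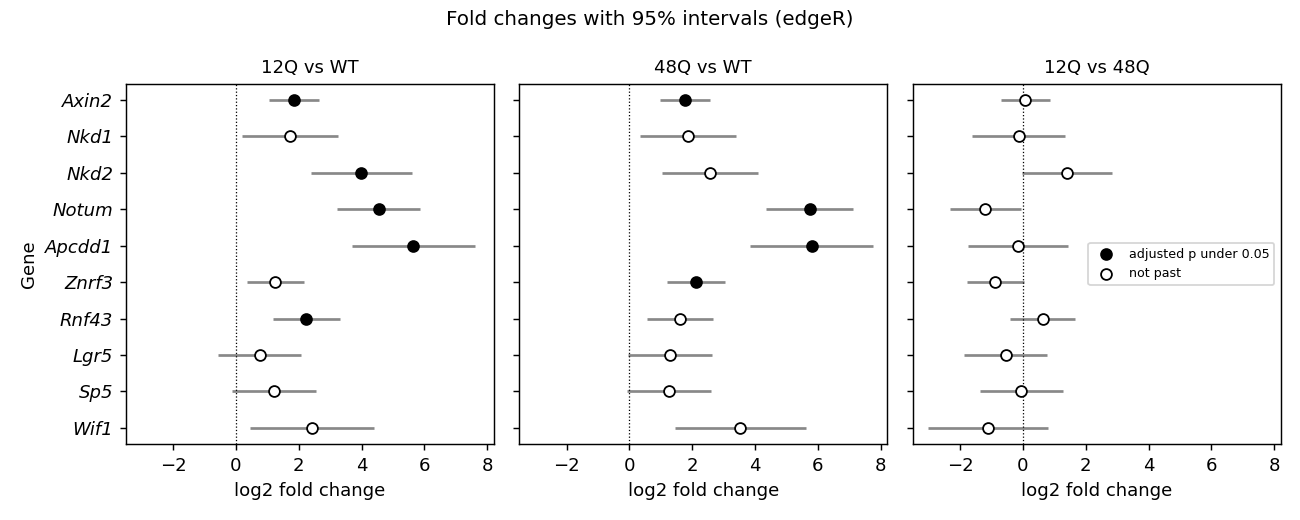
Log2 fold changes from the edgeR fit for the 10 genes (rows) in the 3 comparisons (panels), with 95% intervals as lines. Filled points had an adjusted p under 0.05 and open points did not; Apcdd1 and Notum lie farthest to the right in both comparisons with WT, and no point is filled in 12Q against 48Q.

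TCF/LEF factors recognise short DNA words, and the promoters of the members were searched on both strands for the word CTTTGAA, for the variant CTTTGAT, for the variant CTTTGTA and for the variant CTTTGTT, in the 250 bases before each transcription start of RefSeq (GRCm38.p6, the assembly of mm10). These words do not overlap one another on the same strand. Promoters of 6 of the 10 genes were searched, Axin2, Nkd1, Nkd2, Rnf43, Sp5 and Wif1, with 2 for Rnf43. The windows of Nkd1 (chr8:88527383-88527632) and Rnf43 (chr11:87662837-87663086 and chr11:87699647-87699896) lie downstream of the gene starts given above. The bases just before those gene starts were thus not searched for these genes. No promoter was found for Notum, Znrf3 and Lgr5, and Apcdd1 was left out before the search. Among the 7 promoters, that of Sp5 held 2 of the words and the other 6 held none, while 14.8% of 32851 RefSeq promoters of this length held at least 1 and 1.43% held 2 or more. The Sp5 promoter is shown because it holds them, and those of Axin2 and Nkd2 because both genes passed the test in 12Q tumors and neither holds any. They lie at chr2:70474673-70474922 on the plus strand, chr11:108920099-108920348 on the plus strand and chr13:73847632-73847881 on the minus strand, and are written 5′ to 3′ with the words in capitals.
Sp5: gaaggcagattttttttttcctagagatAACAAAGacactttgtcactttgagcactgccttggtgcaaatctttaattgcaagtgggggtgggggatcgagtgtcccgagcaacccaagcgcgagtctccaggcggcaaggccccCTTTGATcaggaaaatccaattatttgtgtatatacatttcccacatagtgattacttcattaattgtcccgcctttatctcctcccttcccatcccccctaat
Axin2: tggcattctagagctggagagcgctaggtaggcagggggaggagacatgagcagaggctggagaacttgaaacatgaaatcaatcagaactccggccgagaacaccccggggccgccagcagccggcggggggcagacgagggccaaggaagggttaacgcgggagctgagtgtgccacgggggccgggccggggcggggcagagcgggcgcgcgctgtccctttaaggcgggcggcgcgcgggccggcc
Nkd2: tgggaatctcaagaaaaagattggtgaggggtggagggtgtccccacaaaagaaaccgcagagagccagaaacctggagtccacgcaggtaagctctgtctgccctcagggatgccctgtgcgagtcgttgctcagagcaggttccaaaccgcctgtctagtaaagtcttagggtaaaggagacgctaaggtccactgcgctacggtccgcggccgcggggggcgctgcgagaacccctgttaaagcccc
In Sp5 the words begin 222 and 104 bases before the start, the first of them on the opposite strand. The Axin2 promoter was 69.2% G and C, that of Nkd2 58.4% and that of Sp5 46.0%. A match is a description of the letters and not a binding site, and the words may lie elsewhere in a gene.

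Comparing the tumor genotypes, 12Q against 48Q asks whether the genes differ with the length of the polyglutamine tract. None of the 10 passed with edgeR (0 called), where 1.01% of all tested genes were called higher and 3.16% lower in 12Q, and DESeq2 also called 0. At an unadjusted p under 0.05 there was 1 with edgeR, Notum, where 26.3% of all genes had one. With DESeq2 there were 3, where 4327 of 15050 genes had one. Notum was 2.28-fold lower in 12Q (log2 fold change -1.19, 95% interval -2.32 to -0.06, edgeR adjusted p = 0.172), Znrf3 1.83-fold lower (-0.88, -1.77 to 0.02, edgeR adjusted p = 0.198) and Wif1 2.16-fold lower (-1.11, -3.01 to 0.79, edgeR adjusted p = 0.399). Nkd2 was 2.66-fold higher in 12Q (1.41, -0.02 to 2.84, edgeR adjusted p = 0.194) and Rnf43 1.55-fold higher (0.63, -0.40 to 1.67, edgeR adjusted p = 0.380). The intervals of Axin2 (0.08, -0.69 to 0.85), Apcdd1 (-0.15, -1.75 to 1.44), Nkd1 (-0.13, -1.61 to 1.34), Sp5 (-0.05, -1.36 to 1.26) and Lgr5 (-0.54, -1.86 to 0.78) each included 0 and left room for differences of more than 1.5-fold in either direction. Libraries of the genotypes did not overlap for 5 genes, 1 higher in 12Q (Nkd2) and 4 lower (Notum, Znrf3, Wif1 and Apcdd1), against 31.3% and 35.5% of all genes, so that this count is near the background. The small difference of Axin2 changed sign when library totals replaced TMM (-0.09).

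**Figure D3:**
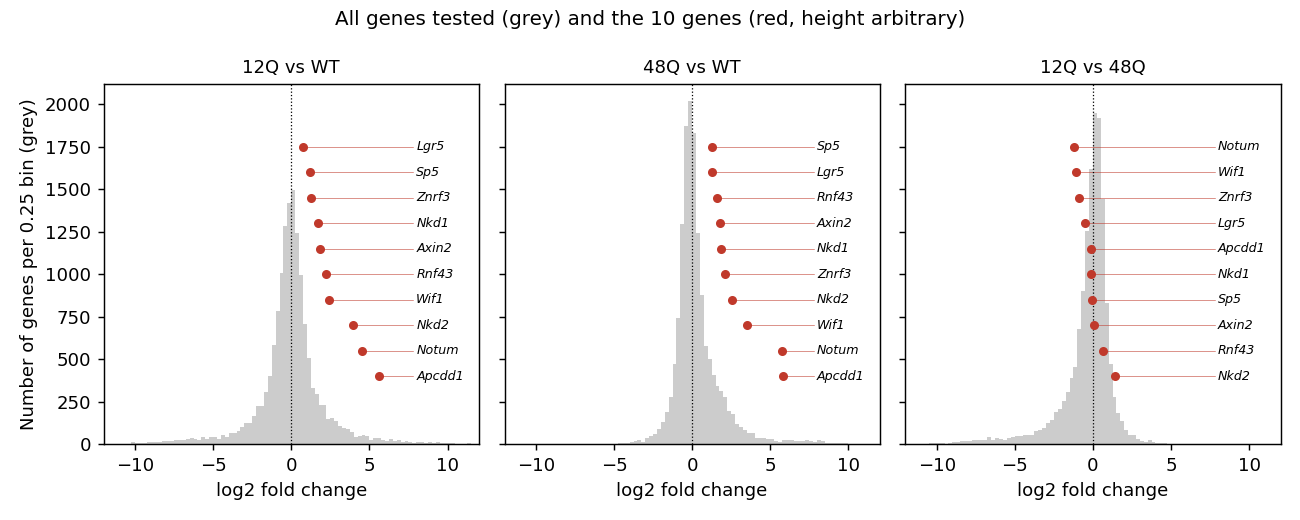
Distribution of log2 fold changes of the 15050 genes tested (grey histogram, bins of 0.25) with the 10 genes in red at arbitrary heights, for each comparison. All 10 lie right of 0 in both comparisons with WT and 3 of 10 do in 12Q against 48Q.

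Among the 10 genes, more differed over 2-fold between the libraries of WT (6) than between those of 12Q (4) or 48Q (0). Of all tested genes, 21.1% were over 2-fold higher and 6.7% lower in replicate 2 of WT. These shares were 15.8% and 8.39% in 12Q, and 2.19% and 3.91% in 48Q. Correlation over all genes is a different measure, and stood at r = 0.947 in 12Q, 0.955 in WT and 0.983 in 48Q. In WT, 8 of the 10 genes were higher in replicate 2, and 6 of them more than 2-fold (Wif1, Apcdd1, Nkd1, Notum, Nkd2 and Znrf3), where 21.1% of all tested genes were more than 2-fold higher there. None was more than 2-fold lower there, against 6.7% of all genes. All 8 smooth muscle markers were also higher in WT replicate 2, their sum by 2.53 times, and so were 6 of 8 fibroblast markers, their sum by 1.17 times. Summed luminal markers were lower there, at 0.634 times their level in replicate 1. The part of smooth muscle in the WT levels of the members was not tested. In 12Q, Lgr5, Nkd2 and Rnf43 were more than 2-fold higher in replicate 2 and Sp5 more than 2-fold lower, against 15.8% and 8.39% of all genes. Among 6 genes for prostate secretory products, Tgm4 was at 14540 CPM in 12Q replicate 1 and 598 in replicate 2, whereas Pbsn was at 3.33 and 5.14, and their part in these gaps was not tested. In 48Q, none of the 10 differed more than 2-fold between libraries, against 2.19% and 3.91% of all genes, and Znrf3 was at nearly the same level in both.

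**Figure D4:**
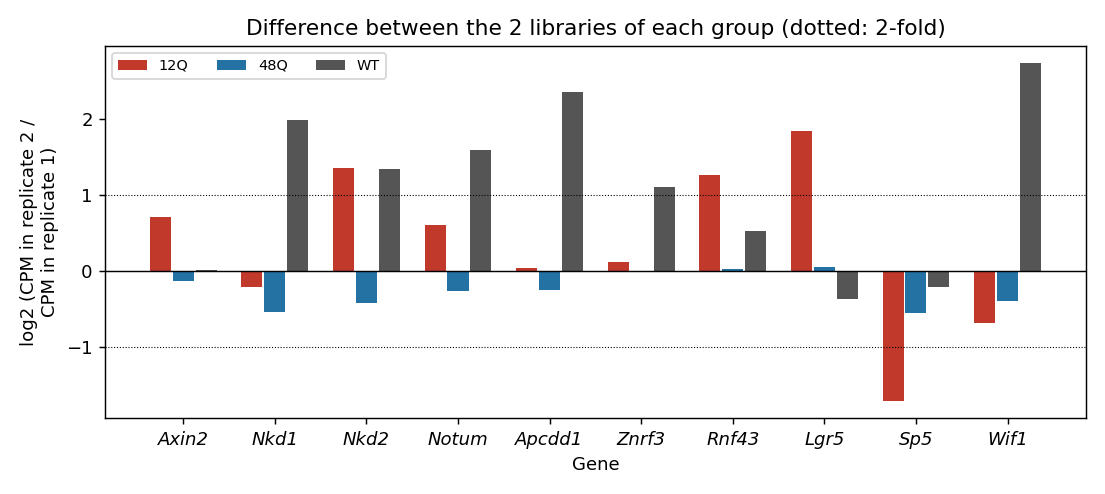
Log2 ratio of the CPM of replicate 2 to that of replicate 1 for each gene in each group, with dotted lines at 2-fold. The WT bars pass 2-fold upward for 6 genes, and no 48Q bar reaches either line.

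Levels of different genes can be compared only per length of gene model, here as CPM per kilobase with the lengths in the deposited table. In WT prostate Axin2 was highest, at 40.1 ± 0.3 CPM per kilobase (SD, n = 2), followed by Nkd1 (35.4 ± 29.9) and Wif1 (16.9 ± 17.7), and Nkd2 was lowest (0.542 ± 0.334). No neighbours in the WT order were separated by their libraries. In 12Q tumors Apcdd1 led at 201 ± 3.94 CPM per kilobase, ahead of Axin2 (145 ± 49.4), Nkd1 (117 ± 11.8) and Wif1 (90.5 ± 29.5). Rnf43 (32.5 ± 19.0), Notum (23.4 ± 6.83), Znrf3 (20.2 ± 1.19), Sp5 (17.6 ± 13.3), Lgr5 (12.0 ± 9.54) and Nkd2 (8.62 ± 5.34) followed, with overlap between each of these and the next. In 48Q tumors Apcdd1 (224 ± 27.97) and Wif1 (196 ± 37.4) overlapped at the top, above Axin2 (137 ± 8.56) and Nkd1 (128 ± 33.8), with Notum (53.5 ± 6.93), Znrf3 (37.1 ± 0.0611) and Rnf43 (20.98 ± 0.270) each separate from the next above. Apcdd1 thus moved from place 8 of 10 in WT to place 1 in both tumor genotypes. These places depend on the length: the table gives Apcdd1 2794 bases, whereas its merged M21 exons hold 12884, and with M21 lengths it took place 4 in both tumor genotypes and place 8 in WT. With M21 lengths Nkd1 stood first in WT (34.5 against 31.2 for Axin2) and in 12Q (114 against 113), and Wif1 in 48Q (191).

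Across the 6 libraries, all 45 pairs of members had a Pearson's r of log2 CPM from -0.004 to 0.98, with a median of 0.82. Among the 28 pairs that exclude Lgr5 and Sp5, r ranged from 0.75 to 0.98 with a median of 0.92, the closest pair being Notum and Apcdd1. This narrower range follows from leaving out the least correlated members. Lgr5 and Sp5 correlated least with the rest and not with each other (r = -0.004). These are descriptions over 6 libraries that share 3 groups. The genes most like each called member over these libraries, among 10012 with a mean of at least 10 CPM in a group, were Plxdc2, Mmp12 and Mfsd1 for Axin2, Plxnd1, Scamp5 and Hspa14 for Nkd2, Evx1, Cdk6 and Hcls1 for Notum, Tenm4, Wnt6 and Mgat3 for Apcdd1, Evx1os, Srgap2 and Igfbp7 for Znrf3, and Rad51b, Urah and C2cd3 for Rnf43, all with r of at least 0.994. Tenm4, most like Apcdd1, was at 196 and 302 CPM in 12Q, at 368 and 354 in 48Q and at 0.835 and 3.85 in WT. Evx1, most like Notum, was at 7.29 and 11.9 CPM in 12Q, at 34.1 and 28.4 in 48Q and at 0 and 0.133 in WT. Rad51b, most like Rnf43, was at 41.2 CPM in 12Q replicate 2 and at 3.96 to 5.15 in the other tumor libraries, and so repeated the single high library of Rnf43.

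The edgeR counts of other pathway genes that follow can be read against all genes tested, of which 11.2% were called higher and 11.2% lower in 12Q than in WT, 3.95% and 1.23% in 48Q than in WT, and 1.01% and 3.16% in 12Q than in 48Q. Other settings called more or fewer of the 15050 genes. DESeq2 called 2409 higher and 2507 lower in 12Q than in WT, 1561 and 979 in 48Q than in WT, and 920 and 1561 in 12Q than in 48Q. With library totals, 3266 were higher and 1032 lower in 12Q than in WT. These counts were 1921 and 83 for 48Q against WT, and 62 and 379 for 12Q against 48Q. Of 13 other direct Wnt targets, 8 were higher and 0 lower in 12Q, and 4 higher and 0 lower in 48Q, with median log2 fold changes of 2.84 and 2.24. Cd44, a hyaluronan receptor, was at 1155 ± 202 CPM in 12Q, 452 ± 51.8 in 48Q but only 20.4 ± 7.32 in WT (SD, n = 2), with edgeR adjusted p = 0.00270 and 0.00991. Bambi, which encodes a decoy receptor of TGF-β family ligands, was at 82.5 ± 14.7, 34.4 ± 17.9 and 5.95 ± 1.34 CPM (edgeR adjusted p = 0.00571 and 0.0329). Ephb3, an ephrin receptor gene, was called higher in 12Q (4.80 on the log2 scale, edgeR adjusted p = 0.00936) and Prox1, a homeobox factor gene, in 48Q (4.56, edgeR adjusted p = 0.0421). Between tumors edgeR called 0 of the 13, with 5 at an unadjusted p under 0.05, whereas DESeq2 called 6 higher in 12Q. Mmp7, a matrix protease gene, was at 6282 ± 3478 CPM in 12Q and 2725 ± 247 in 48Q, and the T-box gene Tbx3 at 1006 ± 175 and 795 ± 44.1.

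Other secreted or surface antagonists were split. Dkk2, which encodes a ligand of Lrp6 that can block Wnt signalling, was at 489 and 697 CPM in 12Q, at 539 and 626 in 48Q and at 0.835 and 2.83 in WT, 323-fold higher in 12Q and 318-fold in 48Q (edgeR adjusted p = 0.00294 and 0.00975). Sfrp1, a soluble Frizzled-related inhibitor, was lowest in 12Q and highest in 48Q, at 0.222 and 0.557 CPM in 12Q, at 83.7 and 104 in 48Q and at 6.31 and 19.8 in WT. It was lower in 12Q than in WT (-5.03 on the log2 scale, edgeR adjusted p = 0.00823) and than in 48Q (-7.87, edgeR adjusted p = 0.0165). Of the 11 antagonists tested, 3 were higher and 3 lower in 12Q, 2 higher and 0 lower in 48Q, and 0 higher and 3 lower in 12Q than in 48Q. The other 2 lower in 12Q than in 48Q were Sfrp4, with 1 count in 12Q against 132 (CPM ratio 0.00872, 95% interval 0.000219 to 0.0494), and Frzb (-3.81, edgeR adjusted p = 0.0406), which was itself higher in 48Q than in WT (3.71, edgeR adjusted p = 0.0399). Sost had 0 counts in 12Q and was at least 51.4-fold lower than in WT, with the bound set at 3 counts per library. WT itself was at 1.15 and 9.33 CPM, and without WT replicate 2 the bound was 11.3-fold. Of 8 fibroblast markers, 3 were also called lower in 12Q than in 48Q. Lum was at 0.0370 and 0.217 CPM in 12Q against 63.5 and 56.95 in 48Q, whereas Col1a1 overlapped, at 73.85 and 194.8 against 146.7 and 191.3. In WT, Frzb was at 0.782 and 0.7075 CPM and Sfrp4 at 0.365 and 0.575, while the summed fibroblast markers lay above both 12Q libraries. The part of fibroblasts in these differences was not tested.

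Among 14 tested genes for Wnt ligands and their secretion, 5 were higher and 2 lower in 12Q and 2 higher and 0 lower in 48Q. Wnt4 was at 134.5 and 163 CPM in 12Q, at 54.3 and 68.8 in 48Q and at 3.96 and 8.67 in WT (edgeR adjusted p = 0.00360 and 0.0182), and Wnt6 was called in both (log2 fold change 4.81 and 4.96, edgeR adjusted p = 0.00920 and 0.0250). Wnt5a was called higher in 12Q (2.68, edgeR adjusted p = 0.00889), and Wnt7b was called higher in 12Q than in 48Q (1.88, edgeR adjusted p = 0.0466). The Wnt7b call was kept with DESeq2 and with no filter and lost under the other 10 alternatives, at an edgeR adjusted p of 0.05 with DESeq2 size factors, 0.0666 with library totals, 0.0540 with fits of 2 groups and 0.0524 with a replicate block. Of 16 receptors and R-spondins, 1 was higher and 4 lower in 12Q, and 0 higher and 1 lower in 48Q. With library totals the 12Q count was 4 higher and 3 lower. Rspo2 and Rspo3, whose R-spondin products bind Lgr5, were at or near 0 counts in 12Q tumors. Rspo3 had 2 counts in 12Q against 1102 in WT (CPM ratio 0.00128, 95% interval 0.000155 to 0.00463, and 0.00254 without WT replicate 2) and 480 in 48Q (0.00479, 95% interval 0.000579 to 0.0174). Rspo2 had 0 counts in 12Q and was at least 38.7-fold lower than in WT (20.5-fold without WT replicate 2), and was also lower in 48Q (-5.41, edgeR adjusted p = 0.0438). Both moved with the smooth muscle markers given above, whose part was not tested. Lrp5, the co-receptor gene, was called higher in 12Q (1.03, edgeR adjusted p = 0.0216).

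Of 15 destruction complex and Dishevelled-linked genes, 0 were higher and 1 lower in 12Q, Dact3 (log2 fold change -5.53, edgeR adjusted p = 0.0113), which was also lower in 12Q than in 48Q (-4.73, edgeR adjusted p = 0.0425). In 48Q edgeR and DESeq2 called 0 of them, with 0 at an unadjusted p under 0.05 by edgeR, and the most abundant, Csnk1a1 and Gsk3b, had log2 fold changes of -0.18 and -0.33. Of 14 nuclear partners, 1 was higher and 1 lower in 12Q and 1 higher and 0 lower in 48Q. In 12Q library totals called 5 higher and 1 lower and DESeq2 4 higher and 2 lower. Lef1, which encodes a DNA-binding partner of β-catenin, was at 21.4 ± 6.83 CPM in 12Q, 39.5 ± 7.73 in 48Q against 4.27 ± 2.28 in WT (SD, n = 2, edgeR adjusted p = 0.0203 and 0.0269), and Tle2, a corepressor gene, was lower in 12Q (-2.91, edgeR adjusted p = 0.0201). Between tumors edgeR called 0 of the 14, with 2 at an unadjusted p under 0.05, DESeq2 called 2 lower in 12Q, and Ctnnb1 and Tle1 had log2 fold changes of -0.03 and 0.30. Each call between tumors named for these lists was lost when some single library was left out, as were the 12Q calls of Lrp5, Sost, Dact3, Tle2 and Lef1, and without WT replicate 1 all 48Q calls were.

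**Figure D5:**
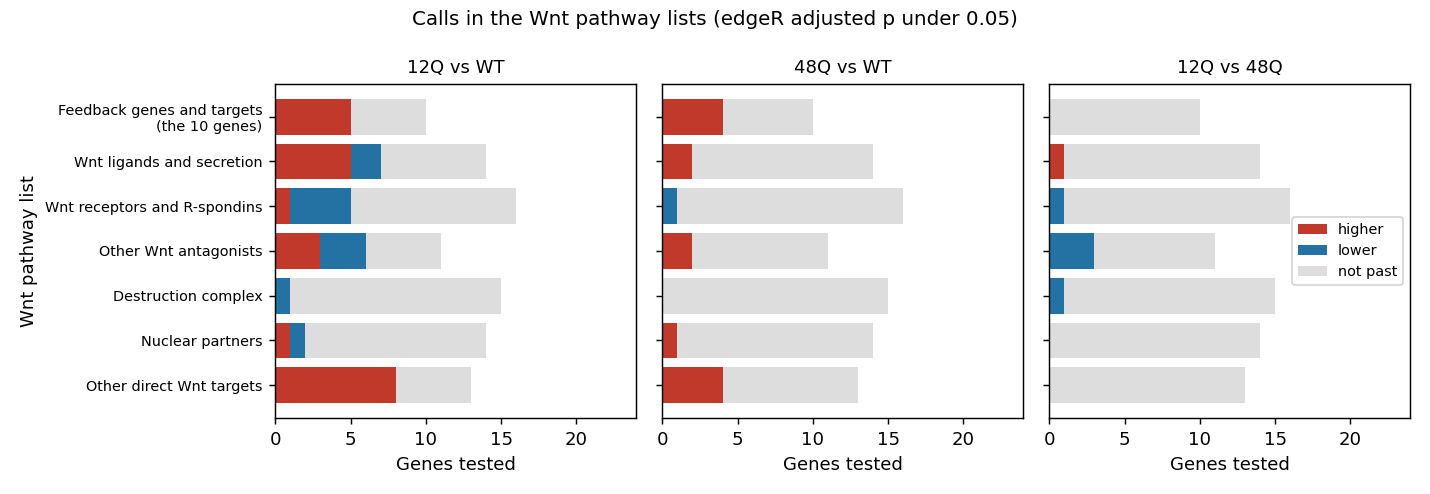
Number of tested genes called higher (red), lower (blue) or not past the threshold (grey) in the 10 genes and in the 6 other Wnt pathway lists, for each comparison (edgeR, adjusted p under 0.05). In both comparisons with WT, the 10 genes and the other direct targets hold higher calls and no lower ones.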

How the data were processed

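The authors deposited 1 table of raw read counts, not normalized, with a column per library. TopHat2 2.0.14, HTSeq 0.6.0 and the mm10 build are named in the submitters' processing notes. Annotation and strand setting: not given in the sources used here. Columns were matched to samples by their labels, and 0 columns matched none. Of the 24091 symbols, 23509 were in GENCODE M21, with 99.7% of those positions overlapping the named gene. The labels do not say whether replicates were different mice, and the p-values therefore reflect only the spread of these libraries, which may be technical.

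Genes were kept by filterByExpr (minimum count 10, minimum total 15), scaled by TMM and tested with edgeR 4.0.16 (R 4.3.3, quasi-likelihood F test, 1 fit of 3 groups, 3 residual degrees of freedom), with Benjamini-Hochberg adjustment over all genes and a threshold of 0.05. The SE is the log2 fold change divided by the root of F, and intervals are 95%. The biological coefficient of variation was 0.378. Log2 CPM used a prior count of 2. Intervals and bounds on low counts cover counting error only. The procedure was tested on simulated data, with a spread set below that estimated here and changes placed only in genes with ample counts. Alternatives were DESeq2 1.42.0, its size factors in edgeR, library totals, no filter, fits of 2 groups, a replicate block and leaving out each library.

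The members and lists were chosen with earlier results of these data known. The text names all members, and per list and comparison up to 3 called genes with the smallest adjusted p, or the 2 most abundant where none was called, plus the 3 genes most correlated with each called member. CTTTGTA and CTTTGTT were added after the first search. Apcdd1 has no position or sequence printed here.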

Additional observations from a re-analysis of the deposited data

How the results depend on the processing

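Of 360 fold changes of the 10 genes under 12 alternatives, 312 kept their direction and side of the threshold, 12 lost the call, 28 gained it and 8 changed sign. DESeq2 size factors in edgeR and no filter changed no member's call. With DESeq2, 8 members passed in 12Q and 8 in 48Q relative to WT. Of 15050 genes, DESeq2 called 4916 in 12Q relative to WT (49% upward), 2540 in 48Q relative to WT (61.5% upward) and 2481 between tumors (37.1% upward). Library totals called 7 members and 2004 genes in 48Q against WT, and moved the all-gene median (log2) to 0.48 in 12Q and 0.71 in 48Q against WT and -0.18 between tumors, with 76.0%, 95.9% and 14.1% of calls upward in place of 50.1%, 76.3% and 24.2%. Fitting only the 2 groups called 1887 genes in 12Q against WT. Leaving out 1 library gave 1861 to 2934 genes and 3 to 7 members in 12Q against WT, 0 to 1215 genes and 0 to 7 members in 48Q against WT, and 47 to 866 genes and 0 members between tumors, where the full fit called 3370, 780 and 627 genes. Fewer samples enter these fits, and a lone library is assumed to vary like the other groups.

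Fold changes (log2) that changed sign when 1 library was left out ranged, in 12Q against WT, from -0.44 (without 12Q replicate 2) to 1.45 for Lgr5. Between tumors they ranged from -1.73 to 0.14 (without 12Q replicate 1) for Lgr5, from -0.31 (without 12Q replicate 2) to 0.42 for Axin2, from -0.12 (without 12Q replicate 2) to 1.16 for Rnf43, from -0.37 to 0.17 (without 48Q replicate 1) for Nkd1, and from -1.11 to 0.58 (without 12Q replicate 2) for Sp5, which was at 0.26 without 48Q replicate 1. With library totals Axin2 between tumors was at -0.0898. None of these was called with all 6 libraries, and the cause was not tested. Among other named genes, alternatives chosen after seeing the data put Csnk1a1 in 48Q against WT at 0.53 with library totals and at -0.42 to 0.10 (without WT replicate 1) when leaving out 1 library, Gsk3b at 0.37 with library totals, and Ctnnb1 between tumors at -0.112 to 0.0609 when leaving out 1 library (0.05 without 12Q replicate 1).

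Replicate numbers are shared between groups but nothing says that they pair samples, and deviations correlated at 0.0252, 0.134 and -0.103. With a replicate block, 6 members were called in 12Q and 6 in 48Q against WT and 0 between tumors (3066, 854 and 605 genes).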
